A study of Homo sapiens with 2 samples.

Results

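The DNA replication machinery was followed here as 47 genes, chosen by name for their role in copying the genome, out of 19775 genes that have a probe set of their own on the array. The samples were HT-29 cells, a human colorectal adenocarcinoma line, grown as spheroids (1 array) or as monolayer (1 array). Spheroids were made from the monolayer cells on low-adhesion plates in serum-free stem cell media that held B27, EGF and FGF, and were harvested on day 5. Monolayer cells grew attached in medium with 10% fetal bovine serum. Growth form and medium therefore differed together and cannot be told apart. Spheroids of this kind are used as a culture enriched in cancer stem cells (CSCs), but they remain a mixture of cells of 1 line.

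Each value is a MAS5 signal, the intensity that the Affymetrix software summarises from the short probes of a probe set. With 1 array per condition there is no replicate error, no test was run, and the number of arrays limits the precision. Differences are log2 of the spheroid signal over the monolayer signal, so that 1 is a 2-fold higher signal in spheroids. Each gene took its value from its brightest probe set, by mean log2 signal. Signals under 62.7, the 50th percentile over both arrays, were raised to that floor before log2 was taken. As a yardstick, differences between probe sets of one gene had an SD of 0.41 over 5506 genes. Both arrays had a trimmed mean of 500.1. The hybridisation spike-ins, control RNAs added to every array in the same amount, read lower for spheroids with each of their 18 probe sets (mean log2 difference -0.25). Of 10 colon epithelial markers 8 were above the floor on at least 1 array, EPCAM at 22299 in spheroids and 21151 in monolayer, CDX2 and VIL1 were above it on 1 array only, and CDX1 and CDH17 were below it on both. Of 11 markers of other cell types 9, PTPRC among them, stayed below it on both arrays. COL1A1 and PECAM1 were above it and differed in direction by their brightest probe sets. COL1A1 was at 1972 in spheroids and 1370 in monolayer (0.53), while its next brightest probe set read 301.8 and 312.6. Its dimmer probe sets were at 0.98, 1.04 and 0.18. PECAM1 was at 99.5 in spheroids and 123.7 in monolayer (-0.31). Dimmer probe sets of PECAM1, above the floor on 1 array, were at 0.36 and 0.047. With the median of probe sets both genes were over 0, so the direction of PECAM1 is unsettled.

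Replication starts when the origin recognition complex (ORC), with CDC6 and CDT1, loads the ring of MCM2 to MCM7 onto origins, a step called licensing. CDC45 and the GINS complex then turn the ring into the active helicase. DNA polymerase alpha with primase makes primers, the clamp loader RFC places the sliding clamp PCNA, polymerases delta and epsilon extend, and FEN1 and LIG1 finish the lagging strand. Many of these genes are transcribed at the G1/S boundary by E2F factors, so their mRNA is commonly read as a sign of cycling cells.

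Promoter sequences are shown first because E2F binding elements are the feature for which these genes are best known. RefSeq windows of 300 bases, from 250 before to 50 after a gene's start (GRCh38.p14), were found for 41 of the 47 genes, as 52 windows. MCM4, MCM5, GINS4, POLD3, RPA2 and RPA3 had no window. The letters TTTCGCGC or TTTGGCGC, forms of the E2F element, were searched on both strands. They occurred in 11 of the 52 windows (21.2%), in 11 genes, against 1.15% of all 35116 windows. Of the 12 sites 7 began within 20 bases of the gene's start, and 3 were made of 2 overlapping matches on opposite strands. The sites of 9 genes are given below, in the direction of the gene, as they show the element in the helicase, loader and polymerase genes whose values follow. Capitals mark the element, which reads GCGCCAAA or GCGCGAAA where it lies on the other strand.
MCM2, chr3:127598393-127598444, plus strand: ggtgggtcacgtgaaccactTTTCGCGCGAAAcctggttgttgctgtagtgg
MCM3, chr6:52284719-52284766, minus strand: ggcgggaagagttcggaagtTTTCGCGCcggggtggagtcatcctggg
MCM6, chr2:135876502-135876553, minus strand: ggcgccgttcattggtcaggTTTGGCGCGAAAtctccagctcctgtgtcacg
MCM7, chr7:100101379-100101426, minus strand: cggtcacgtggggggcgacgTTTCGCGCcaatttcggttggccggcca
CDC6, chr17:40287866-40287913, plus strand: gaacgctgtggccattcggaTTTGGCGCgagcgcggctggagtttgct
GINS1, chr20:25407658-25407705, plus strand: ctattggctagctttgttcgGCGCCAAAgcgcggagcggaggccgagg
POLA2, chr11:65261889-65261936, plus strand: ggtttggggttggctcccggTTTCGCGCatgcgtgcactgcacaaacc
POLE, chr12:132687333-132687380, minus strand: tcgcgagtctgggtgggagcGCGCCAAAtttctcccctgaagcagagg
POLE2, chr14:49688192-49688239, minus strand: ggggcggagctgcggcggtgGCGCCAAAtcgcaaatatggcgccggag

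The MCM6 window has a second such site, and POLA1 and UHRF1 also have 1 each. In MCM7 the element runs into a CCAAT box, the letters of the NF-Y element. CCAAT on either strand was in 32 of the 52 windows (61.5%), against 34.6% of all windows. The CHR element of late cell cycle genes, TTTGAA or TTCGAA, was in 2 of the 52 (3.85%), against 16.4% of all. The median log2 difference between the arrays was 0.022 over the 11 genes with an E2F element (from -0.23 to 0.54) and -0.047 over the 30 genes with a window but none. A match of letters is a description and not evidence of binding.

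The replication genes had nearly the same signals in spheroids and in monolayer. Every one of the 47 exceeded the floor in spheroids and in monolayer, as did 58.4% of all genes. Their median log2 difference was 0.015, against -0.054 over the 13183 genes measured. Above 0 were 24 genes (51.1%) and under 0 were 23, where 45.2% of all genes measured were above 0 and 54.8% under 0. None of the 47 was 2-fold higher or lower, where 2.53% of all genes measured were at least 2-fold higher in spheroids and 3.08% at least 2-fold lower. At a 1.5-fold threshold (0.58 on the log2 scale) again 0 of 47 passed in either direction, against 9.53% of genes higher and 11.6% lower. Among the 8701 genes with a mean signal at or above that of the dimmest replication gene, a comparison added after the values were seen, 7.92% passed 1.5-fold upward in spheroids and 8.95% downward. The cut is that of POLA2 alone, so the 8701 were not matched to the 47 in brightness. With a floor at the 75th percentile, 6.76% of genes measured were at least 1.5-fold higher and 7.30% lower, against 0 of 46 replication genes. The differences of the 47 genes had an SD of 0.29, against 0.51 over all genes measured and 0.45 over those 8701. In bulk RNA the share of cycling cells and the amount of mRNA per cycling cell cannot be told apart.
The genes nearest to the 1.5-fold line were RFC1, at 0.57, and PRIM2, at -0.54. The sign of most small differences depends on how the arrays are scaled. Over 4 other scalings 19 genes kept a positive difference, 7 kept a negative one, and 21 changed sign in at least 1. The counts past 1.5-fold moved too, to 2 of 47 lower (PRIM2 and RFC2) after median scaling, where 14.5% of all genes were lower. Scaling to the spike-ins put 8 of 47 past 1.5-fold higher, a share near the 18.5% of all genes that passed it there, and the median of all genes measured was then 0.18 instead of -0.054.

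**Figure D1:**
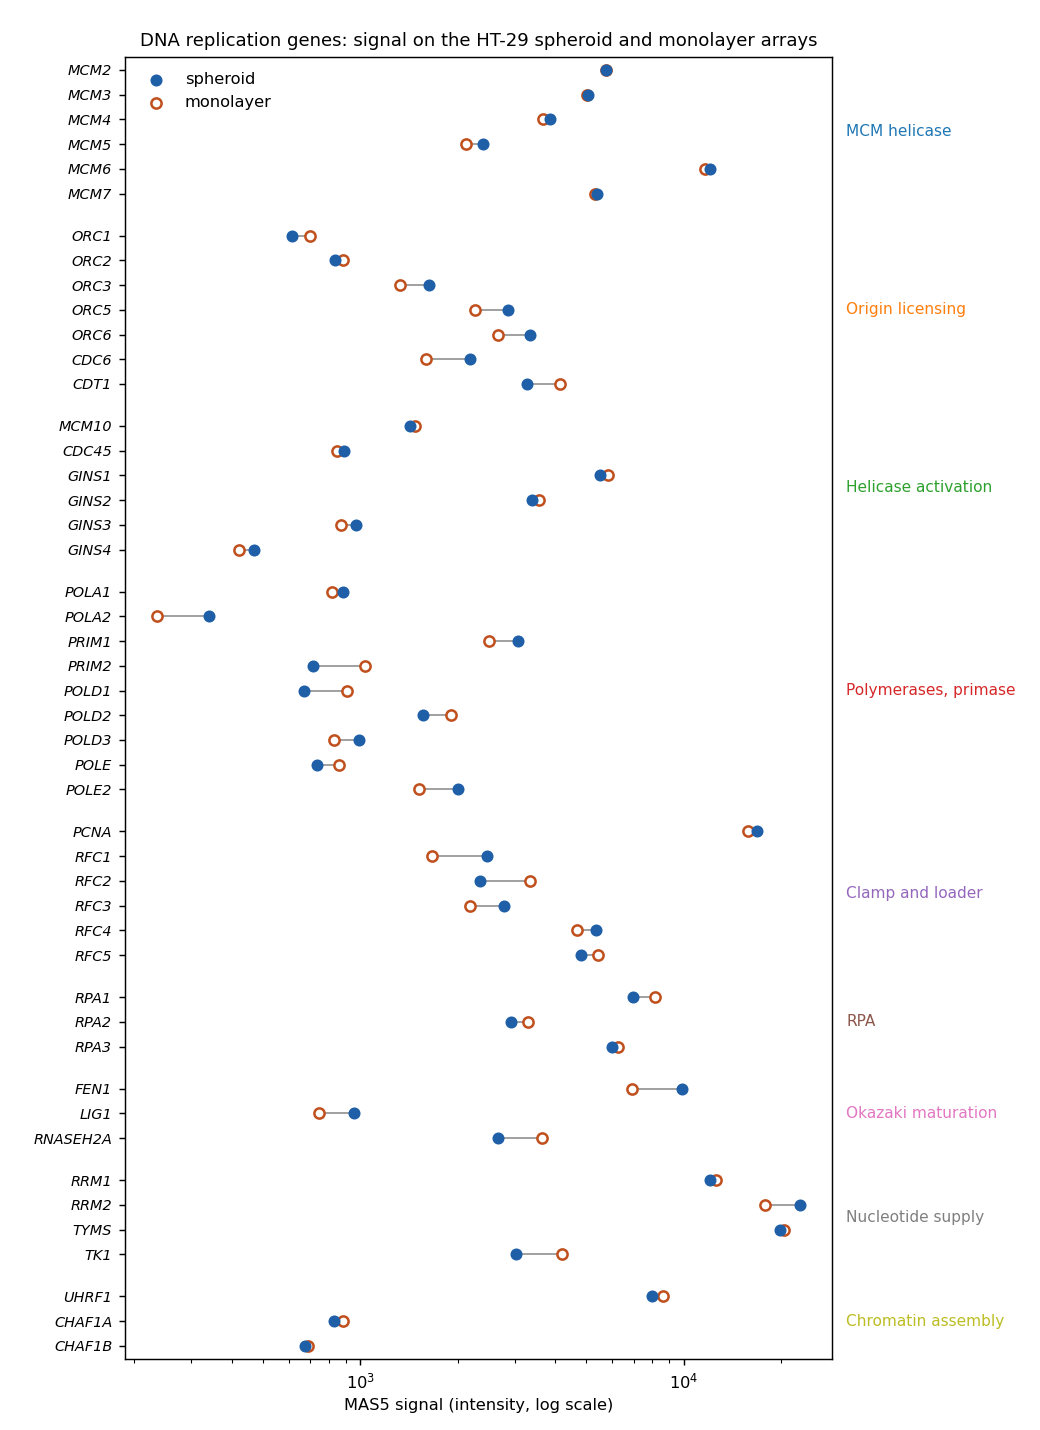
MAS5 signal (intensity, log axis) of 47 DNA replication genes on the HT-29 spheroid array (filled blue) and the monolayer array (open orange), 1 array per condition, in role groups. A grey line joins the 2 signals of a gene, and none of the lines spans a 1.5-fold difference; the longest are those of RFC1 and PRIM2.

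The MCM helicase genes had the narrowest spread of the role groups with 4 or more genes. MCM2 had a signal of 5736 in spheroids and 5746 in monolayer. MCM3 was at 5059 and 5006, and MCM7 at 5408 and 5325, in spheroids and monolayer. The log2 differences of these 3 subunits of the ring were -0.0025, 0.015 and 0.022. MCM6 was at 12032 in spheroids and 11661 in monolayer, MCM4 at 3848 and 3666. MCM5 had the largest difference of the ring, 0.18, with 2396 in spheroids and 2116 in monolayer. Over the 6 genes the SD of the log2 differences was 0.066. Their brightest probe sets agreed more closely than their dim ones. A second probe set of MCM6 read 453.1 in spheroids and 187.8 in monolayer (1.27), and the dimmest of 4 of MCM4 above the floor read 155.1 and 246.3 (-0.67).

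Origin licensing genes were less even. CDC6, the ATPase that joins ORC to load the MCM ring, was at 2179 in spheroids and 1596 in monolayer, 1.37-fold higher, and its second probe set gave a log2 difference of 0.48 beside 0.45. CDT1, its partner in loading, was on the other side, at 3283 in spheroids and 4153 in monolayer (-0.34), with its second probe set at -0.52. Both genes kept their direction under all 4 other scalings, CDT1 narrowly, at -0.093 relative to the spike-ins. Within ORC the subunits divided. ORC3, ORC5 and ORC6 were at 0.30, 0.33 and 0.33, while ORC1, the subunit whose level is known to follow the cell cycle, was at 616.3 in spheroids and 699.1 in monolayer (-0.18). ORC2 was at -0.082. The median of the 7 licensing genes was 0.30, but over the 4 genes left when probe sets with _s or _x suffixes, which can match several transcripts, were dropped it was 0.13.

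Genes that activate the helicase stayed close to 0. CDC45 was at 889.5 in spheroids and 846.4 in monolayer (0.072). The GINS subunits GINS1, GINS2, GINS3 and GINS4 were at -0.083, -0.070, 0.15 and 0.15. The signals of GINS1 were 5515 in spheroids and 5843 in monolayer. For MCM10, which helps to open the activated helicase, the choice of probe set mattered. Its probe set of highest mean signal read 1420 in spheroids and 1475 in monolayer (-0.055), while another of nearly the same brightness read 1477 and 954.7 (0.63) and the third was at 0.51. GINS2 and GINS4 also have dim probe sets with larger differences of both signs. Those of GINS2 read 52.3 in spheroids and 152.9 in monolayer, and 144.1 in spheroids and 41.7 in monolayer, each below the floor on 1 array.

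**Figure D2:**
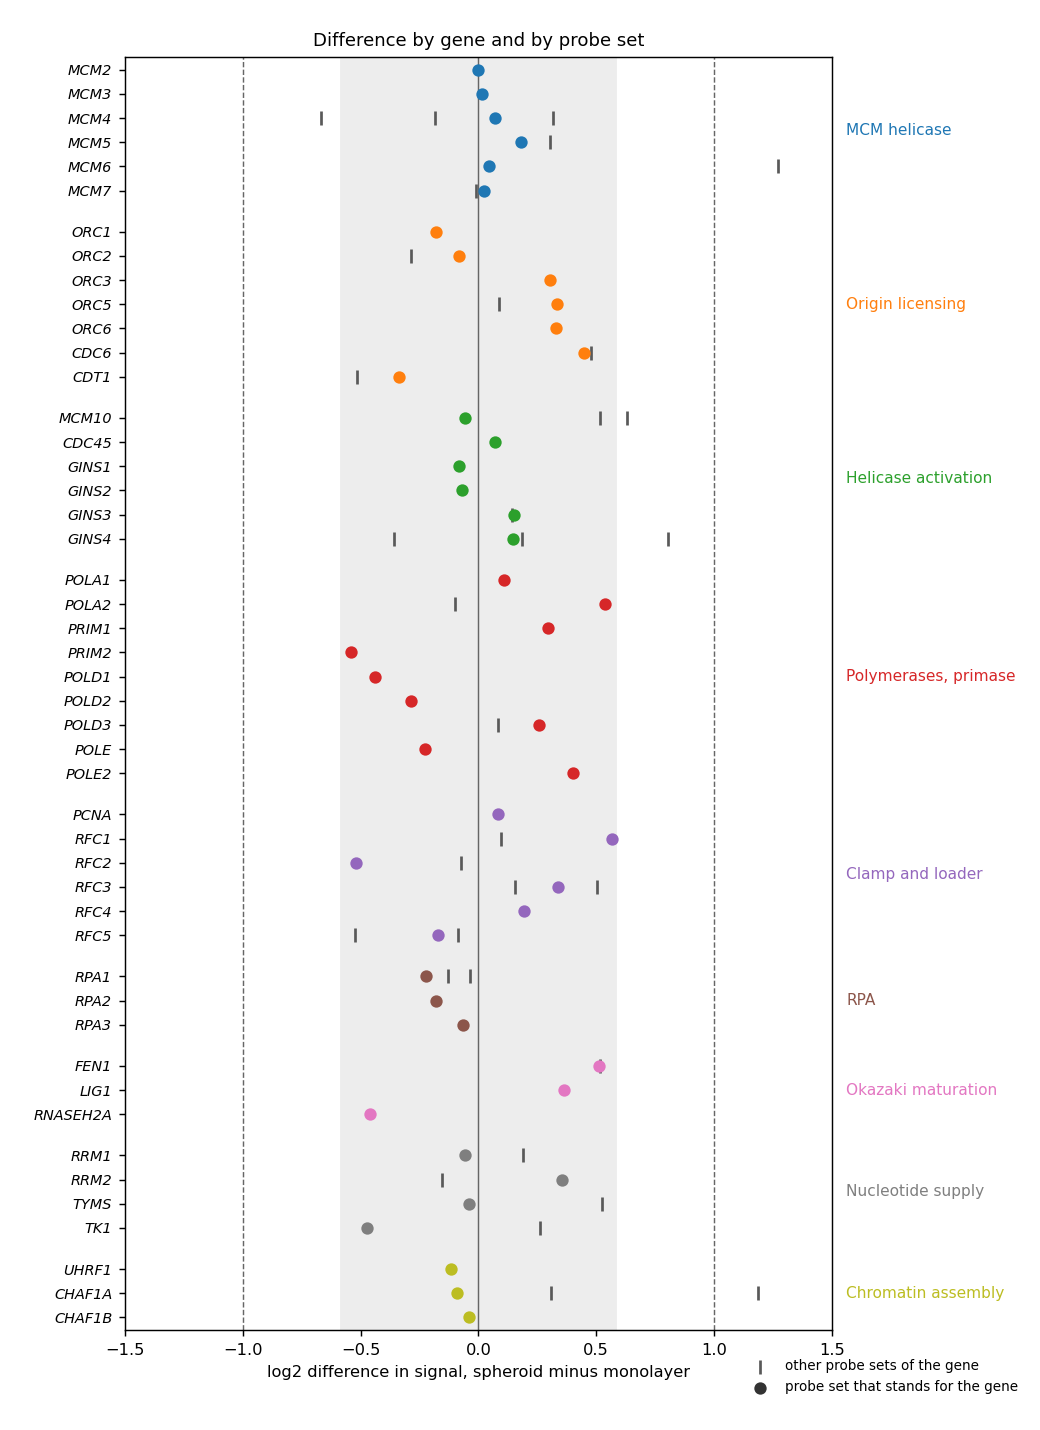
Log2 difference in signal (spheroid minus monolayer, 1 array each) of the 47 genes by role group. A coloured dot is the brightest probe set of a gene and a grey tick any further one that exceeded the floor on both arrays; the shaded band marks differences under 1.5-fold and dashed lines mark 2-fold; all dots lie in the band, and the ticks of MCM6 (1.27) and CHAF1A (1.19) lie beyond 2-fold.

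In the polymerases, subunits of one enzyme lay on both sides of 0. Primase showed the widest gap: PRIM1, its catalytic subunit, was at 3078 in spheroids and 2507 in monolayer (0.30), and PRIM2, the regulatory subunit, at 713.2 and 1037 (-0.54). Of 4 further probe sets that PRIM2 shares with PRIM2BP, 2 were above the floor on both arrays, at -0.41 and -0.60, and their signal cannot be split between the genes. For polymerase epsilon the catalytic subunit POLE was at 734.6 in spheroids and 859.6 in monolayer (-0.23), and POLE2 at 2010 in spheroids and 1520 in monolayer (0.40). For polymerase delta the catalytic POLD1 was at 668.3 in spheroids and 906.0 in monolayer (-0.44). Its small subunit POLD2 was at -0.29 and its subunit POLD3 at 0.26. POLA1, the catalytic subunit of polymerase alpha, was at 0.11. POLA2, the gene of lowest mean signal among the 47, was at 340.7 in spheroids and 234.7 in monolayer (0.54), and its second probe set, dimmer still, at -0.10. Of these 9 genes 8 kept their sign under the 4 other scalings, and POLE turned to the other side relative to the spike-ins (0.020). The median of the group was 0.11, but -0.058 once a floor at the 75th percentile removed POLA2.

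PCNA, the ring that holds polymerases on DNA and a usual marker of proliferation, was at 16812 in spheroids and 15861 in monolayer, a difference of 0.084 by its only probe set. The genes of its loader spread around it. RFC1, the large subunit, had the highest difference of all 47 genes, with 2464 in spheroids and 1664 in monolayer, 1.48-fold higher. Its other probe set of similar brightness gave 1798 and 1680 (0.098), so the size rests on 1 probe set. RFC3 was at 0.34, with its other probe sets at 0.50 and 0.15, and RFC4 at 0.19. RFC2 was at 2342 in spheroids and 3353 in monolayer, 1.43-fold lower, but its second probe set read 2086 and 2192 (-0.072). RFC5 was at -0.17, and all 3 of its probe sets were under 0, down to -0.52.

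The genes of RPA, the complex that coats single-stranded DNA, were all slightly under 0. RPA1 was at 6966 in spheroids and 8131 in monolayer (-0.22), RPA2 at -0.18 and RPA3 at -0.064. All 3 probe sets of RPA1 were under 0. Median, quantile and GAPDH scaling left all 3 genes under 0, whereas relative to the spike-ins all were over 0, with a median of 0.067.

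Among the genes that finish Okazaki fragments, FEN1, the flap endonuclease, was at 9896 in spheroids and 6934 in monolayer, 1.43-fold higher. Both of its probe sets gave 0.51, the closest match among the 24 genes with more than 1 probe set above the floor on both arrays. LIG1, the ligase that seals the nicks, was at 955.7 in spheroids and 742.4 in monolayer (0.36). RNASEH2A, the catalytic subunit of the nuclease that removes RNA from DNA, was at 2659 in spheroids and 3654 in monolayer (-0.46). These 3 genes kept their direction under the other scalings.

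Genes of nucleotide supply did not move together, and here probe sets of one gene disagreed in sign for all 4. RRM2, the small subunit of ribonucleotide reductase, was at 22887 in spheroids and 17874 in monolayer (0.36), the second probe set at 15351 and 17079 (-0.15). RRM1, the large subunit, was at 12078 in spheroids and 12568 in monolayer (-0.057), and 0.19 by its second probe set. TYMS, thymidylate synthase, was at 19831 in spheroids and 20384 in monolayer (-0.040), and 0.53 by a dimmer one. TK1, the cytosolic thymidine kinase of S phase, was at 3039 in spheroids and 4214 in monolayer (-0.47), against 3257 in spheroids and 2717 in monolayer (0.26) by the other. The median of the 4 was -0.049, and 0.27 when the most different probe set stood for each gene.

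Genes that rebuild chromatin behind the fork were near 0. UHRF1, which brings the maintenance DNA methyltransferase to new DNA, was at 7980 in spheroids and 8651 in monolayer (-0.12), and CHAF1B, a subunit of the histone chaperone CAF-1, at 672.9 and 690.9 (-0.038). CHAF1A, the large subunit of CAF-1, was at 831.4 in spheroids and 884.7 in monolayer by an _x_at probe set (-0.090). Another probe set of it read 1020 in spheroids and 448.6 in monolayer (1.19) and the third was at 0.31, so the gene's direction is unsettled.

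Across all 88 probe sets of the 47 genes, 80 exceeded the floor in both conditions, 44 of them over 0 and 36 under 0, with a median of 0.071. Past 1.5-fold lay 4 probe sets upward and 1 downward. The shares over all probe sets of the array were not computed, so these counts describe the 80 only. Of the 24 genes with more than 1 such probe set, 9 had all of them over 0 (CDC6, FEN1, GINS3, MCM5, MCM6, ORC5, POLD3, RFC1 and RFC3), 5 all under 0 (CDT1, ORC2, RFC2, RFC5 and RPA1) and 10 had both signs. The SD between probe sets of one gene was 0.36 for these 24, larger than the SD of 0.29 between the 47 genes. The first SD takes in dim probe sets, while the second uses only the brightest of each gene, so the 2 cannot be compared directly.

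**Figure D3:**
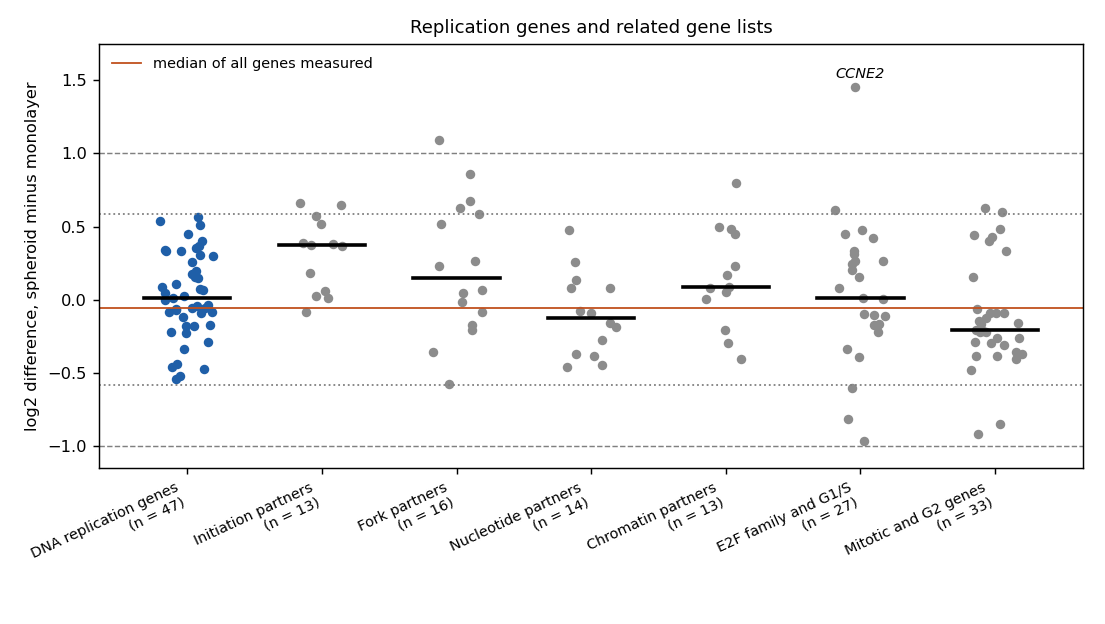
Log2 difference (spheroid minus monolayer, 1 array each) of single genes (dots) in the DNA replication genes (blue) and in related lists (grey), with the number of measured genes and the median as a black bar. The orange line is the median of all genes measured (-0.054), and dotted and dashed lines mark 1.5-fold and 2-fold; the blue dots stay between the dotted lines, and CCNE2 (1.46) lies highest.

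Of 56 measured partners of the machinery outside the 47 genes, in 4 lists, 37 were over 0 (66.1%) and 19 under 0. Of all genes measured 45.2% were over 0. The median of the partners was 0.082, against -0.054 over all genes measured. At least 1.5-fold higher in spheroids were 7 of the 56, a share near the 9.53% of all genes measured, and 0 were as much lower, against 11.6%. The median was 0.37 for 13 initiation partners, and 0.30 or higher under each other scaling and floor. TOPBP1, which recruits CDC45, was at 3097 in spheroids and 1957 in monolayer (0.66), and DBF4, the activating subunit of the CDC7 kinase that fires origins, at 4533 and 3045 (0.57). RIF1, a regulator of replication timing, was at 0.65, and the 7 probe sets of it that exceeded the floor on 1 or both arrays were all over 0. MTBP was at 0.52. GMNN, the geminin that holds CDT1 inactive, was at 7027 in spheroids and 5424 in monolayer (0.37); it was named after its value was seen, as the inhibitor of a gene that was lower.
Fork partners had a median of 0.15 over 16 genes, with 10 over 0 (62.5%, against 45.2% of all genes measured) and 6 under 0. A floor at the 75th percentile left 13 of them, with a median of 0.044, 7 over 0 and 6 under 0. The brightest, TOP1, was at 8634 in spheroids and 12875 in monolayer (-0.58). ATAD5, which unloads PCNA, was 2-fold higher, at 193.9 in spheroids and 91.2 in monolayer (1.09), a dim gene with 1 probe set. DNA2, a nuclease and helicase of flap processing, was at 520.3 in spheroids and 286.9 in monolayer (0.86). MCM8 and the checkpoint mediator CLSPN were at 0.68 and 0.63. A dim probe set of MCM8, below the floor on 1 array, was at -0.49, and a dim one of CLSPN at 0.95. Chromatin partners had a median of 0.088 over 13 genes, led by NPAT, the activator of histone genes, at 1160 in spheroids and 667.2 in monolayer (0.80). A dimmer probe set of NPAT was at 0.24. The histone chaperones ASF1A and NASP were at 0.50 and 0.49, and the acetyltransferase HAT1 at 0.45. Nucleotide partners lay the other way, with a median of -0.13 over 14 genes and none past 1.5-fold. DTYMK, the thymidylate kinase, was at -0.46, but dimmer probe sets of it were at -0.47 and 0.75, so its direction is unsettled. SHMT2 was at -0.45 and IMPDH2 at -0.38, and the CTP synthase CTPS1 at 0.48.

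The E2F family and G1/S regulators had a median of 0.012 over 27 genes, close to that of the replication genes. CCNE2, a cyclin that drives entry into S phase, stood apart, with 3376 in spheroids and 1230 in monolayer, 2.74-fold higher. Its second probe set gave 1.54 beside 1.46. CCNE1, the other E-type cyclin, was at 1450 in spheroids and 1626 in monolayer (-0.16). E2F4, a repressor E2F, was at -0.96 by 1 probe set and 0.026 by a dimmer one. RBL2, the pocket protein that partners it, was at 899.6 in spheroids and 1585 in monolayer (-0.82), and 0.11 by a second probe set near the floor. RBL1 was at 0.62.
Mitotic and G2 genes lay lower than the replication genes, with a median of -0.21 over 33 genes. Under 0 were 25 of them (75.8%), against 54.8% of all genes measured. CDC25C was at -0.92, but at 0.26 by a dimmer probe set. The mitotic kinase PLK1 was at -0.85 by its only probe set, with 162.6 in spheroids and 292.3 in monolayer. CDK1 and the kinesin CENPE were at 0.63 and 0.60, with a dim probe set of CDK1 at -0.14. Relative to the spike-ins the mitotic median was 0.039 and that of the replication genes 0.26. The mitotic median was under that of the replication genes in all 12 settings, the one reported included. Several of these settings could not change the order. Median, GAPDH and spike-in scaling shift both lists alike, and having no floor or a floor from olfactory receptors alters neither list. With 1 array per condition the difference between the lists was not tested.

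**Figure D4:**
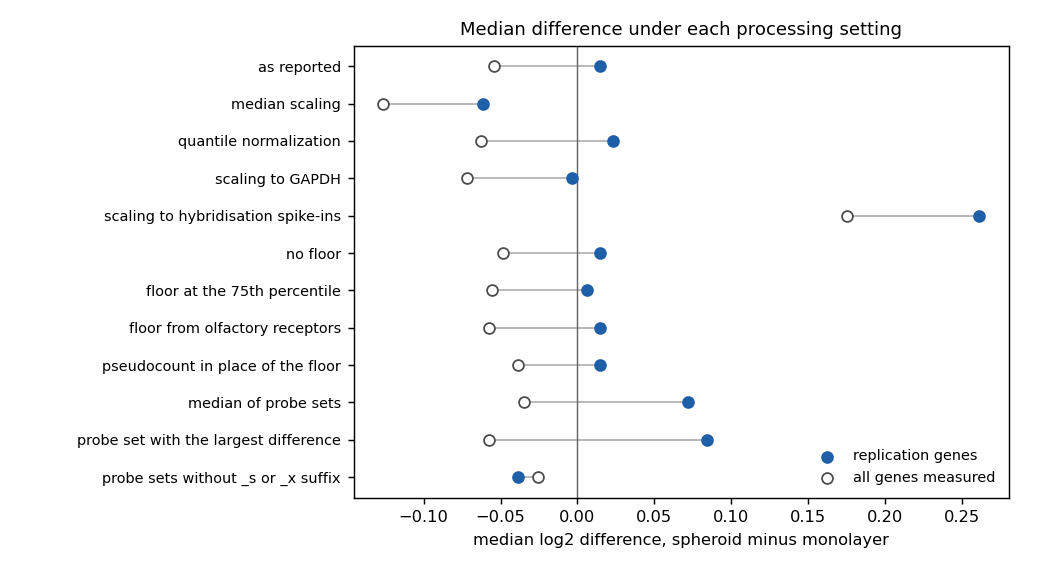
Median log2 difference (spheroid minus monolayer) of the replication genes (blue dots) and of all genes measured (open circles) under the reported setting and 11 alternatives, on 1 array per condition. The replication genes lie between -0.061 and 0.26 and to the right of all genes in each setting except probe sets without _s or _x suffix, where 36 of the 47 genes remain.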

How the data were processed

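RNA of HT-29 spheroids and monolayer was hybridised to Human Genome U133 Plus 2.0 arrays, 1 per condition here, though the methods mention duplicates. The authors computed MAS5 signals with Affymetrix Expression Console (version not given in the sources used here), and the deposited values are these intensities on a linear scale for 54675 probe sets, without detection calls. Computation used Python 3.11.15, numpy 2.4.6, pandas 2.3.3 and matplotlib 3.10.9.

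In the platform annotation 41097 probe sets have 1 gene, 1801 several and 11777 none; 41043 were matched to current RefSeq symbols (GRCh38.p14). Signals under 62.7, the 50th percentile, were raised to it before log2. Probe sets shared by genes were not used for gene values. The members, role groups and comparison lists were chosen with earlier results of these data known. Named were all members and, of each comparison list, up to 4 genes with the largest difference above the floor on both arrays, plus any past 2-fold. Other named genes were picked after their values were seen. Thresholds were 2-fold, as in the methods, and 1.5-fold. The computation was checked on simulated data. The 11 alternatives changed scaling, floor, pseudocount (15.9) or probe set.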

Additional observations from a re-analysis of the deposited data

How the results depend on the processing

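With 1 array per condition, culture and array variation are unknown. Each of 14 results was recomputed under 11 alternatives, and a median counted as moved when it shifted by more than the SD between probe sets of one gene over the square root of the number of genes. Of 154 values 129 stayed and 25 moved. With scaling to the spike-ins the median of the replication genes was 0.26 and 8 of 47 were at least 1.5-fold higher, near the share of all genes there (18.5%), with role group medians of 0.28 (MCM helicase), 0.55 (licensing), 0.25 (helicase activation), 0.36 (polymerases), 0.39 (clamp and loader), 0.067 (RPA), 0.61 (Okazaki maturation), 0.20 (nucleotide supply) and 0.16 (chromatin assembly). That scaling raises all genes alike, and relative to the median of all genes measured the replication genes were at 0.086, against 0.069 as reported. Median scaling gave -0.061 and 2 genes at least 1.5-fold lower (all genes 14.5%). The probe set with the largest difference gave a median of 0.084, with 4 of 47 genes at least 1.5-fold higher and 2 lower (all genes 17.8% and 17.2%), of which 2 were 2-fold higher (MCM6 and CHAF1A) and 1 was 2-fold lower (GINS2), and 0.27 for nucleotide supply. The median of probe sets put 1 gene, MCM6, past 1.5-fold higher (all genes 8.69%). Without _s or _x suffixes 36 genes remained, of which 1, GINS2, was past 1.5-fold (all genes 11.9%) and 2-fold lower, and the medians of licensing and Okazaki maturation were 0.13 and -0.047. The floor at the 75th percentile gave -0.058 for polymerases. Quantile normalization, GAPDH scaling, no floor, the olfactory receptor floor and the pseudocount moved none of the 14. For no floor and the olfactory receptor floor (84.7) this was fixed beforehand. The lowest signal used for the 47 genes was 234.7, that of POLA2 in monolayer, so neither setting could change a value. Medians under scaling by 1 factor were fixed as well, since it shifts all of them alike. GAPDH scaling shifted them by 0.019, less than the smallest tolerance (0.060). Median scaling shifted them by less than the tolerance of any role group, but by more than that of all 47 genes. Scaling to the spike-ins shifted them by 0.25, more than any tolerance, so every median moved. Values fixed in these ways are among the 129 that stayed and the 25 that moved. The 129 therefore overstate the stability. No paired analysis was possible because each condition has 1 array.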

Other observations

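E2F1, the activator E2F of the G1/S boundary, gave 2 readings. Its probe set of highest mean signal was at 139.6 in spheroids and 132.4 in monolayer, a log2 difference of 0.077, while the other read 206.3 in spheroids and 64.7 in monolayer (1.67), the monolayer signal lying just above the floor of 62.7. Among the cyclins CCNE2 alone of the list was past 2-fold, and CCNA2, the cyclin of S and G2 phase, was at 2972 in spheroids and 3368 in monolayer (-0.18). KRT20, a keratin of differentiated colon epithelium, was at 218.4 in spheroids and 99.6 in monolayer (1.13) by 1 probe set, next to EPCAM at 0.076. The other keratins among the colon epithelial markers, KRT8, KRT18 and KRT19, were at -0.33, -0.39 and -0.29. The median of the 8 markers measured was -0.11, with 4 over 0 and 4 under 0.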
